A study of Tachysurus vachellii and Tachysurus fulvidraco x Tachysurus vachelli and Tachysurus fulvidraco with 9 samples.

Results

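Liver microRNAs (miRNAs) of the hybrid yellow catfish Huangyou-1 were set against those of its paternal species, P. vachelli. The comparison takes 6 of the 9 small RNA libraries of the study, 3 of the hybrid and 3 of P. vachelli, and describes the families and hairpin arms that moved together or apart. The hybrid came from eggs of P. fulvidraco fertilized with sperm of P. vachelli, and P. vachelli came from a cross within the species. All lines were juveniles from artificial fertilization, hatched at 28 °C, with 600 fish per line in 3 aquaria of 200 fish. The labels give liver as the tissue and do not say whether a library is 1 fish or a pool, so p-values measure the spread between these libraries. The 3 libraries of P. fulvidraco, the maternal species, entered the fit to estimate the spread, and their values are given where a sequence is near 0 in a parental line. Of the 728 distinct sequences in the table, 278 reached a normalized count of 10 in at least 3 of the 9 libraries and were tested. These fall into 124 miRNA families.

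A miRNA hairpin is cut into a duplex of 2 strands, 1 from its 5' arm (5p) and 1 from its 3' arm (3p). One strand is usually retained in Argonaute and is abundant, while the other is mostly degraded. Bases 2 to 8 of a strand, the seed, largely set which messenger RNAs it pairs with, and members of a family usually share a seed. In vertebrate liver, miR-122 is the dominant hepatocyte miRNA. A family's sequences can come from several hairpins in the genome, some of them transcribed together as a cluster.

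The sequences that carry the comparison are printed as the table gives them, 5' to 3', with the seed in capitals. Names keep the prefix of the reference species and a suffix for bases that depart from its entry. The first set is let-7, whose 5p strands share 1 seed and whose 3p strands of let-7b and let-7h share another. Of the aligned 5p strands of let-7a and let-7d, 2 of 22 bases differ.
ssa-let-7a-5p: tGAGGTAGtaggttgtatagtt
ola-let-7b_R+1: tGAGGTAGtaggttgtgtggtt
tni-let-7h: tGAGGTAGtaagttgtgttgtt
dre-let-7d-5p: tGAGGTAGttggttgtatggtt
ssa-let-7b-3p_1ss3GA: cTATACAAcctactgccttccc
ssa-let-7h-3p: cTATACAActtactgccttcct

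The next sets share a seed, and in each at least 1 sequence moved unlike the others. They are the sequences named miR-125a, miR-221 with miR-222a and miR-222b, miR-92a with miR-92b, miR-1a with miR-206, and miR-146a with miR-146b. The sequences named miR-125a differ at 8 of 22 positions when compared without gaps. They share that name in the deposited data, and whether they are the same miRNA was not checked.
sha-miR-125a: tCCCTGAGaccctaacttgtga
aca-miR-125a-5p: tCCCTGAGacccttaacctgtg
bta-miR-221: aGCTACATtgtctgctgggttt
dre-miR-222a-3p_R-1: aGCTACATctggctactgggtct
gga-miR-222b-3p_R-1: aGCTACATctgattactgggtca
xtr-miR-92a_R+1: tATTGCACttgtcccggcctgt
ssa-miR-92b-3p: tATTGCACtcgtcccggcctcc
aca-miR-1a-3p: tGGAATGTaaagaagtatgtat
dre-miR-206-3p: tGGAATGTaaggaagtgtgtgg
ccr-miR-146a: tGAGAACTgaattccatagatgg
dre-miR-146b_R+1: tGAGAACTgaattccaagggtgt

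The last sets are 5p and 3p strands paired by their names, which parted in miR-33 and moved together in miR-190a. The strands named miR-730 and sequences near 0 in 1 parental line follow. Paired strands were taken as arms of 1 hairpin, and this was not checked against hairpin sequences. Names that begin with PC are the authors' predicted candidates.
gga-miR-33-5p: gTGCATTGtagttgcattgc
gga-miR-33-3p_L+1_1ss20TC: cAATGTTCctgcagtgcagca
chi-miR-190a-5p: tGATATGTttgatatattaggtt
chi-miR-190a-3p_L+1: aCTATATAtcaaacatattcct
dre-miR-730_R-1: tCCTCATTgtgcatgctgtgtg
ssa-miR-730a-3p: cACAGCGCctgcaatgtggagg
PC-5p-555_7718: aGGAAAGAgtggacaatagca
PC-5p-3257_591: tTTTAATGactgcaaactgtgc
PC-5p-30865_77: tAGCAGAAgccacacctaagtc
PC-5p-27278_89: cACCTAAAcccggcccgatatc
dre-miR-202-5p_R+1: tTCCTATGcatatacctctttga

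Of the 278 tested sequences, 97 were called (34.9%), meaning an adjusted p under 0.05 in limma with Benjamini-Hochberg adjustment. In the hybrid 43 were higher (15.5%) and 54 were lower (19.4%), and 42 of the calls were at least 2-fold (15.1%), 27 of them higher and 15 lower. The values of the hybrid and of P. vachelli did not overlap for 130 sequences (46.8%). The called-lower sequences were the more abundant ones, with a median log2 level of 11.02 over the 9 libraries, against 7.03 for the called-higher and 8.04 for the uncalled. The split rests on the deposited scaling. Deposited totals were 7704357 to 8395613 in P. vachelli and 6230587 to 6635109 in the hybrid, and the median difference over all sequences was -0.01. With equal totals that median was 0.34, with 87 sequences higher and 26 lower, and without miR-122-5p in the totals it was 0.28, with 76 higher and 34 lower. Median-ratio scaling left it at 0.01. Below, a family called lower is given with its value at equal totals. Ratios within a library depend on the scaling only through the 1 added to each value, which matters for low sequences.

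**Figure D1:**
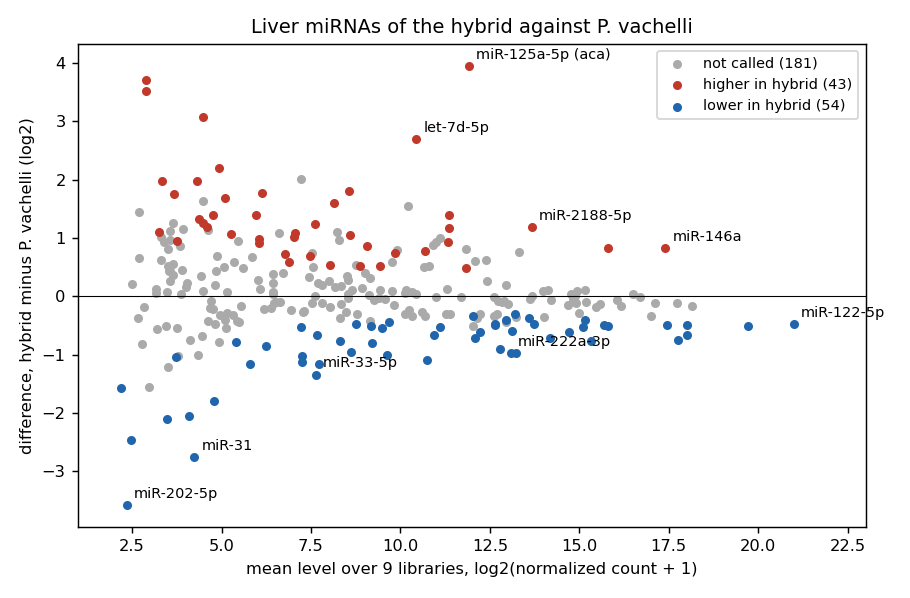
Difference between the hybrid and P. vachelli (log2, vertical axis) against the mean level over 9 libraries (log2 of the normalized count plus 1, horizontal axis), 1 point per tested sequence. The 43 called-higher sequences (red) lie mostly at low and middle levels, with miR-451 and miR-146a among those at high levels. Many of the 54 called-lower ones (blue) lie within 1 log2 unit of 0 at high levels.

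Estimated reads per library were 5737232 to 8579462 over all 9, so that 3 reads, used as the floor, correspond to 2.69 to 3.56. In every library miR-122-5p was the most abundant sequence, at 27.9% to 33.1% of the total, as fits the label of liver. In P. vachelli its values were 2486408, 2273583 and 2775938, and in the hybrid they were 1749957, 1776360.2 and 1873274. All hybrid libraries were below all P. vachelli libraries, by 0.48 on the log2 scale (SE 0.08, adjusted p = 0.000978), and by 0.13 with equal totals. In whole tissue, fewer cells of a type and less RNA per cell cannot be told apart.

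Of 64 families with 2 or more tested sequences, 17 had at least 2 calls. In 6 of these all calls were lower, in 10 all were higher, and let-7 had calls both ways. Of 54 miRNAs with both arms tested, both arms were called higher in 8 and lower in 4, and 23 had no call on either arm. The arms had the same sign in 38 of the 54. These counts include strands that passed the minimum of 10 only outside P. vachelli. The families miR-730 and miR-133 had 2 calls only with such a strand, and so had miR-133a both arms higher.

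**Figure D2:**
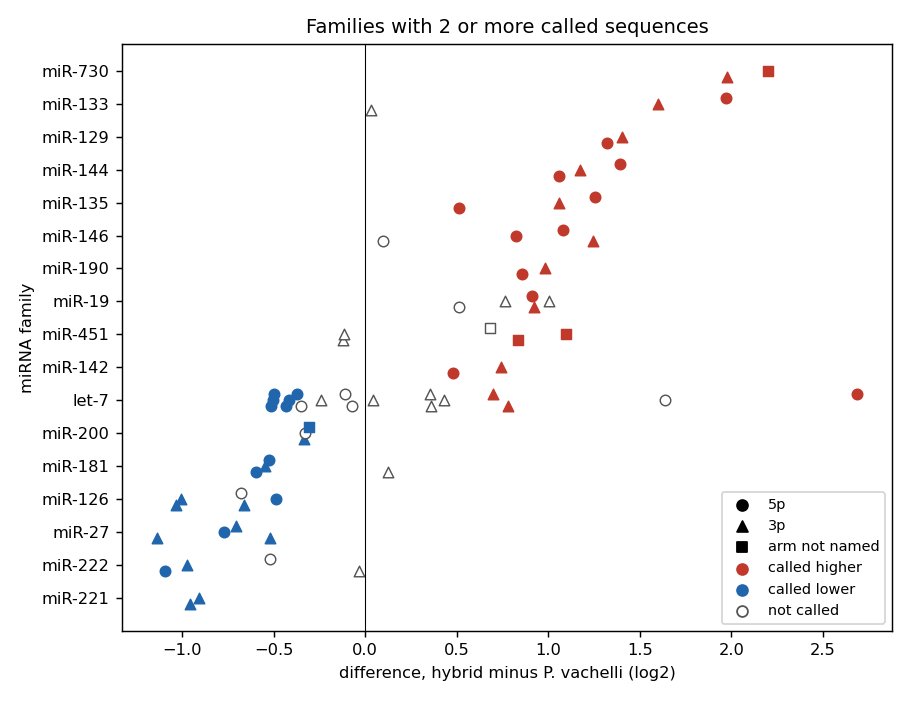
Difference between the hybrid and P. vachelli (log2) for every tested sequence of the 17 families with 2 or more calls, with circles for 5p, triangles for 3p and squares where the name gives no arm. Filled symbols are calls, red for higher and blue for lower; all calls of a row share a colour except in let-7. The calls of miR-200 pass to the other side of 0 with equal totals.

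Among families that were lower in the hybrid, miR-126, which lies in an intron of Egfl7 and is typical of endothelium, had 4 calls in 5 sequences and a median of -0.68 (-0.35 with equal totals, 3 calls). The 3p strand, ssa-miR-126-3p, read 388075, 350747 and 324527 in P. vachelli and 210821, 217374 and 241891 in the hybrid. The groups lay apart, and the strand fell by 0.66 (SE 0.09, adjusted p = 0.000427). The 5p strand read 7123, 7963 and 9164 in P. vachelli and 5728, 5394.5 and 6112 in the hybrid. It also lay lower in every hybrid library and fell by 0.49 (SE 0.12, adjusted p = 0.0102), and at equal totals it differed by -0.14 and was not called. The variant ssa-miR-126-3p_1ss18AG and dre-miR-126b-3p_R+1, at lower levels, fell by 1.01 and 1.03.

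The miR-221 and miR-222 families, which share a seed on the 3p arm and are encoded as a cluster in vertebrates, were lower in the hybrid, with 2 calls in 2 sequences and 2 in 4. The main miR-221 sequence read 10583, 10622 and 10228 in P. vachelli and 5617, 5344 and 5785 in the hybrid. It fell by 0.91 (SE 0.09, adjusted p = 0.000154), and by 0.57 with equal totals. For miR-222a-3p the values were 14443, 14907 and 12082 against 6821, 6829.9 and 7364, and for miR-222a-5p they were 2938, 2726 and 2363 against 1312, 1235 and 1204. Neither arm overlapped between the lines, and they fell by 0.97 (SE 0.11) and 1.09 (SE 0.13), both with an adjusted p of 0.000263, and by 0.63 and 0.75 with equal totals. The miR-222b-3p strand, which differs from miR-222a-3p at 3 of 23 bases outside the seed, did not follow. It read 724, 624 and 626 in P. vachelli and 632, 664 and 624 in the hybrid, a difference of -0.04 (SE 0.13, adjusted p = 0.839). Within libraries the ratio of miR-222b-3p to miR-222a-3p was 0.94 log2 units higher in the hybrid (SE 0.11, adjusted p = 0.00156).

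All 4 sequences of miR-27, a family of the miR-23/27/24 cluster that in mammals represses regulators of lipid synthesis and adipocyte differentiation, were lower, with a median of -0.74 (-0.40 with equal totals, 3 calls). The abundant arm, miR-27b-3p, read 24863, 28309 and 25281 in P. vachelli and 14996, 15502 and 17539 in the hybrid. Its partner miR-27b-5p read 451, 454 and 454 against 225, 261 and 318. Both arms were apart in every library and fell by nearly the same amount, 0.71 (SE 0.10) and 0.77 (SE 0.15), with adjusted p = 0.000443 and 0.00292. Over the whole cluster list, 5 of 10 sequences were called, all lower, with a median of -0.41 against -0.01 for all 278, of which 19.4% were lower. With equal totals 3 were lower and 1 higher, with a median of -0.07. Over all tested, equal totals gave 26 lower and 87 higher, with a median of 0.34. The main miR-24 sequence fell by 0.47 (SE 0.14, adjusted p = 0.0294, lost without P. vachelli library 1 or 2 or hybrid library 1 or 2). With equal totals miR-24 differed by -0.13 (adjusted p = 0.541). At the deposited scaling miR-23b differed by -0.36 (adjusted p = 0.0759). The rarer ssa-miR-24b-3p_1ss17AG differed by 0.17 (adjusted p = 0.474), and its ratio to miR-24 was 0.64 higher in the hybrid (SE 0.13, adjusted p = 0.0102).

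Both arms of miR-181a, a miRNA of lymphoid and vascular cells in mammals, were lower too. The 5p strand read 57378, 48030.2 and 49415 in P. vachelli and 32654, 37216 and 37441 in the hybrid, and the 3p strand read 893, 1005 and 1011 against 643, 629 and 715. They fell by 0.53 (SE 0.10) and 0.55 (SE 0.13), with adjusted p = 0.00325 and 0.00799. The family had 3 calls in 4 sequences, and with equal totals its median went from -0.54 to -0.20 and all 3 calls were lost. The miR-200 family, of epithelial cells, had 2 weak calls in 3 sequences, with differences of -0.31 for miR-200a and -0.33 for miR-200b, which became 0.04 and 0.01 with equal totals.

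Among families that were higher in the hybrid, miR-144 and miR-451, an erythroid cluster in vertebrates, had 5 calls in 8 sequences. The miR-144-5p strand read 1725, 1160.3 and 1018 in P. vachelli and 4394, 3032 and 2772 in the hybrid. Its 3p strand read 1272, 1313 and 1859 against 4036, 3083 and 2861. Each hybrid library exceeded each P. vachelli library on both arms, and the rises were 1.39 (SE 0.24, adjusted p = 0.00167) and 1.17 (SE 0.19, adjusted p = 0.000952). The main miR-451 sequence, which is matured by Argonaute without Dicer, read 36001, 34396 and 38407 against 87491, 51471 and 59563. It rose by 0.83 (SE 0.17, adjusted p = 0.00462), with the highest value in hybrid library 1. Over the erythroid list 6 of 10 sequences were called, all higher, with a median of 0.94 against -0.01 for all tested, of which 15.5% were called higher.

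The most abundant sequence that rose was miR-146a, a miRNA induced by NF-kB that dampens innate immune signalling in mammals. It read 150379, 143775 and 122669 in P. vachelli and 213603, 259127 and 266635 in the hybrid. Its 3p strand read 102, 133 and 145 against 266, 313 and 317. The groups were apart on both arms, which rose by 0.83 (SE 0.11, adjusted p = 0.000356) and 1.24 (SE 0.16, adjusted p = 0.000392). The same-seed dre-miR-146b_R+1 read 14314, 14525 and 13324 against 12527, 14950.4 and 18087, and its groups overlapped, with a difference of 0.10 (adjusted p = 0.692). The ratio of dre-miR-146b_R+1 to miR-146a was 0.73 lower in the hybrid (SE 0.15, adjusted p = 0.00946). A rarer same-seed sequence also named miR-146b, cgr-miR-146b-5p_R-4, rose with miR-146a. It read 70.4, 89.1 and 115 in P. vachelli and 193, 178 and 202 in the hybrid. This rarer sequence was called higher (adjusted p = 0.00383), and its ratio to miR-146a differed by 0.25 (SE 0.29, adjusted p = 0.638). Both arms of miR-142a, a miRNA of blood-forming cells, rose by 0.48 (5p, SE 0.11, adjusted p = 0.00635) and 0.74 (3p, SE 0.13, adjusted p = 0.00188). Over the leukocyte and inflammation list 5 of 17 were higher and 3 lower, with a median of 0.10, and the 3 lower calls were those of miR-181, lost with equal totals. Over all 278, 15.5% were higher and 19.4% lower.

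Both strands of miR-190a rose together. The 5p strand read 316, 307 and 307 in P. vachelli and 577, 542 and 570.1 in the hybrid, and the 3p strand 26.9, 36.8 and 35.6 against 84.15, 63.1 and 53.2. No library crossed over, and the rises were 0.86 (SE 0.11, adjusted p = 0.000356) and 0.98 (SE 0.21, adjusted p = 0.00553). In the miR-730 family the strand named dre-miR-730_R-1 read 6.45, 9.88 and 15.4 in P. vachelli and 34.8, 42.4 and 82.1 in the hybrid. The strand ssa-miR-730a-3p read 8.6, 9.88 and 5.93 against 24.2, 24.6 and 67.1. Hybrid library 3 was the highest for both. The strand dre-miR-730_R-1 rose by 2.20 (SE 0.37, adjusted p = 0.00126). It reached 10 in only 1 P. vachelli library, so it passed the minimum mainly outside P. vachelli. The strand ssa-miR-730a-3p, 1 of the family's 2 calls, was 1.97 higher. It passed the minimum of 10 only outside P. vachelli, so its difference is a description. The arms of miR-129, a neural miRNA in mammals, rose by 1.32 (adjusted p = 0.0226, lost without P. vachelli library 2 or hybrid library 2) and 1.40 (adjusted p = 0.0059). Those of miR-135b, present at 11.3 to 23.7 in P. vachelli, rose by 1.25 (adjusted p = 0.00299) and 1.06 (adjusted p = 0.00906).

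Of 18 sequences in the miR-17-92 list, a group of clusters tied to cell proliferation, 2 were higher and 1 was lower, with a median of 0.19, and with equal totals 13 were higher and 1 lower, with a median of 0.54. Of all 278, 15.5% were called higher and 19.4% lower. With equal totals 87 of 279 were higher (31.2%) and 26 were lower, with a median of 0.34. The higher ones were the arms of miR-19c, which rose by 0.91 (5p, SE 0.20, adjusted p = 0.00553) and 0.92 (3p, SE 0.30, adjusted p = 0.0364). The call of the 3p strand was lost without each hybrid library, P. vachelli library 2 or 3, or P. fulvidraco library 3. The lower one was miR-92b, which read 16525.5, 15362 and 17819 in P. vachelli and 7688, 9198 and 8307 in the hybrid. It fell by 0.98 (SE 0.11, adjusted p = 0.000263), and by 0.64 with equal totals. The same-seed miR-92a read 31707, 25837 and 30492 against 27603, 29172 and 37079.7, so its groups overlapped. Their ratio, miR-92b to miR-92a, was 1.07 lower in the hybrid (SE 0.15, adjusted p = 0.002).

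Beside these 12 miRNAs whose called arms shared a direction, the 5' to 3' ratio of an arm pair was tested over all 54. Of the ratios, 5 were called (9.26%): let-7a, let-7b, let-7h, miR-33 and miR-2188. Across the 54, the more abundant arm had a median difference of -0.12 and the rarer arm 0.12, and in 33 the abundant arm had the lower difference.

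**Figure D3:**
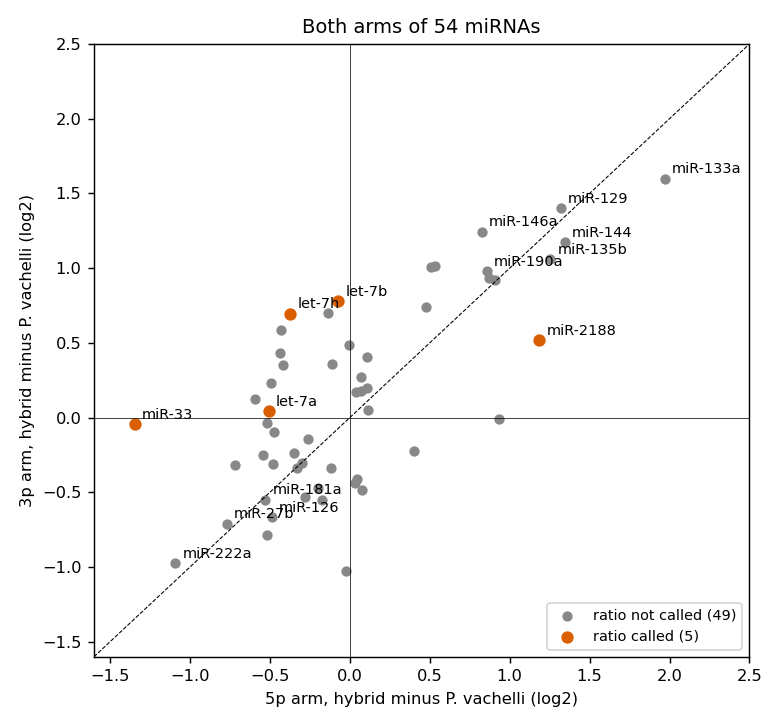
Difference between the hybrid and P. vachelli (log2) of the 3p arm (vertical axis) against that of the 5p arm (horizontal axis) for 54 miRNAs with both arms tested; the dashed line marks equal differences. The arms share a sign in 38 miRNAs, and the 5 with a called arm ratio (orange) lie off it, 4 above and miR-2188 below.

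For let-7, which promotes differentiation and restrains growth signalling in animals, 6 of the 11 5p strands were lower and 1 was higher, while 2 of the 7 3p strands were higher and 0 lower. The 5p strands had a median of -0.37 (-0.03 with equal totals, 1 lower and 2 higher) and the 3p strands one of 0.36. Over all 278, 15.5% were called higher and 19.4% lower, and with equal totals 87 were higher and 26 lower. Of all 113 5p sequences 16 were higher and 23 lower, and of all 105 3p sequences 17 were higher and 23 lower. The most abundant, let-7a-5p, read 1024738, 981689 and 1092270.4 in P. vachelli and 676046, 722643 and 774956 in the hybrid. It fell by 0.51 (SE 0.07, adjusted p = 0.000403), and by 0.17 with equal totals. The let-7b-3p strand read 1215, 1103 and 1275 in P. vachelli and 1689, 2457 and 2082 in the hybrid. It lay higher in every hybrid library and rose by 0.78 (SE 0.18, adjusted p = 0.00686), while let-7b-5p differed by -0.07 (adjusted p = 0.698). For let-7h the 5p strand read 14595, 13074 and 14161 against 10477, 11429 and 10394, and the 3p strand read 128, 131 and 139 against 178, 256 and 220.3. The groups were apart on both arms in opposite directions, -0.37 (SE 0.10, adjusted p = 0.0122; -0.03 and not called with equal totals) and 0.70 (SE 0.21, adjusted p = 0.0294). The 3p call was lost without any P. vachelli library or without hybrid library 2 or 3.

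The 5' to 3' ratio of let-7h was 1.07 lower in the hybrid (SE 0.19) and that of let-7b 0.85 lower (SE 0.14), both with adjusted p = 0.00568. Both calls held with every library left out, as did that of miR-33. The ratio of let-7a was 0.55 lower (SE 0.14, adjusted p = 0.042), a call kept without hybrid library 3 and lost without each of the other 8 libraries.

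The miR-33 hairpin lies in an intron of the SREBP genes, the regulators of sterol and fatty acid synthesis, and its 5p strand represses cholesterol export in mammals. The 5p strand read 274, 388 and 740.3 in P. vachelli and 173, 182 and 151 in the hybrid. The P. vachelli values were spread widely, yet all 3 exceeded the hybrid, and the strand fell by 1.34 (SE 0.34, adjusted p = 0.0112). The 3p strand read 680.4, 746 and 892 against 775, 805 and 661 and overlapped, with a difference of -0.04 (adjusted p = 0.867). The ratio of 5p to 3p was 1.30 lower in the hybrid (SE 0.23, adjusted p = 0.00568). Of the 29 sequences in the lipid, cholesterol and glucose list, miR-33-5p was 1 of 9 called lower, none was higher, and the median was -0.04. Over all 278, 19.4% were lower and 15.5% higher. With equal totals 5 of the list were lower and 4 higher, against 26 lower and 87 higher over all tested.

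The ratio of miR-2188, which was listed with the erythroid miRNAs of fish, went the other way. Its 5p strand read 7092, 6763 and 7333 in P. vachelli and 20438, 12732 and 15938 in the hybrid, and its 3p strand read 1623, 1307 and 1385 against 2821, 1607 and 1908. The 5p strand rose by 1.19 (SE 0.16, adjusted p = 0.000443), and the 3p strand, whose groups overlapped by 1 library, differed by 0.52 (adjusted p = 0.0685). The ratio was 0.67 higher in the hybrid (SE 0.16, adjusted p = 0.0293), a call lost without P. vachelli library 1 or 2, hybrid library 2 or 3, or P. fulvidraco library 2. Where an unnamed strand was taken as the arm opposite to the named one, a choice made after the data were seen, 9 of 65 ratios were called. These added miR-451, 0.96 higher (SE 0.15, adjusted p = 0.00376), and miR-103, 1.002 higher (SE 0.22, adjusted p = 0.014). They also added miR-99, whose 3p-like strand is given among the sequences near 0. The 3p-like strand of miR-99 passed the minimum of 10 only outside P. vachelli, so that ratio is a description. The ratio of miR-143, whose arms are both named, was not called among the 54 (adjusted p = 0.0577). In the larger set it was 0.56 higher and called (SE 0.16, adjusted p = 0.0489).

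**Figure D4:**
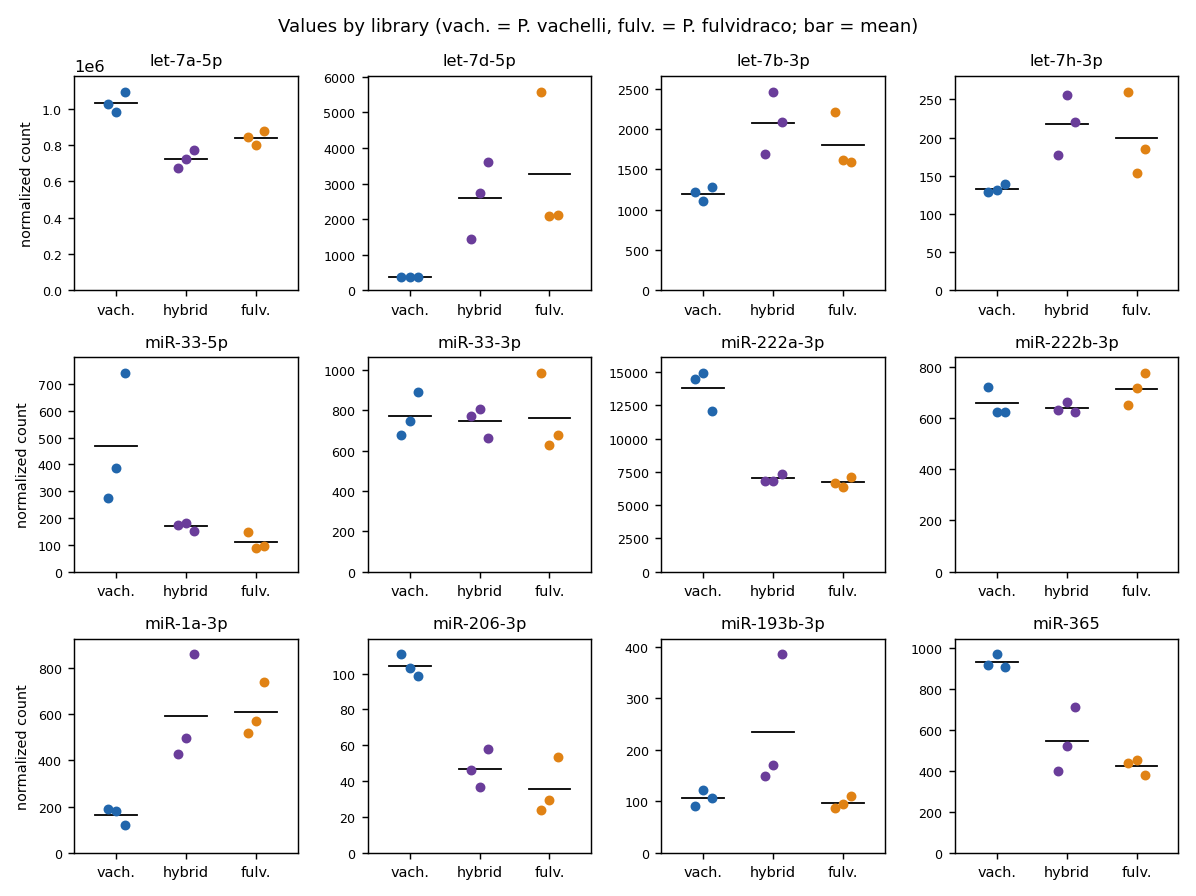
Normalized counts (vertical axis, from 0) of 12 sequences in the 3 libraries of P. vachelli, the hybrid and P. fulvidraco; each point is a library and each bar a mean. Strands paired by name (miR-33) or of 1 seed (let-7a and let-7d, miR-222a and miR-222b, miR-1a and miR-206) part between P. vachelli and the hybrid. So do those of 1 cluster (miR-193b and miR-365). For miR-33-5p the values were 274 to 740.3 against 151 to 182.

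Sequences of 1 family that share a seed were compared within libraries as 58 ratios to the family's most abundant sequence, and 12 were called (20.7%), 9 higher and 3 lower. The largest was between the sequences named miR-125a. The abundant sha-miR-125a read 104802, 77191 and 84986 in P. vachelli and 68662, 77374 and 91536 in the hybrid, with overlap and a difference of -0.17 (adjusted p = 0.392). The rarer aca-miR-125a-5p read 737, 568 and 574 against 5417, 10711 and 15341. All its hybrid values lay above all P. vachelli values, and it rose by 3.95 (SE 0.46, adjusted p = 0.000263). Its ratio to sha-miR-125a rose by 4.12 (SE 0.42, adjusted p = 0.000888).

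The let-7d-5p sequence behaved likewise against let-7a-5p. It read 386, 364.9 and 377 in P. vachelli, close together, and 1452, 2742 and 3598 in the hybrid, spread more than 2-fold. It rose by 2.69 (SE 0.40, adjusted p = 0.000741) and its ratio to let-7a-5p by 3.20 (SE 0.42, adjusted p = 0.00175). In the miR-10 family, whose genes sit among the Hox clusters, the ratio of miR-10b to miR-10c rose by 1.30 (SE 0.22, adjusted p = 0.00567). Neither member passed on its own, at 0.79 for miR-10b (adjusted p = 0.104) and -0.52 for miR-10c (adjusted p = 0.0562). The ratio of let-7b to let-7a, 0.44 higher (adjusted p = 0.0365), held in 4 of the 9 leave-outs, and that of ola-miR-24b-3p_R+5 to miR-24, 0.70 higher (adjusted p = 0.0441), in 2.

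Seeds and clusters also parted across families. The muscle miRNAs miR-1 and miR-206 share a seed and differ at 4 of 22 bases. The miR-1a sequence read 189.7, 181 and 122 in P. vachelli and 427, 495 and 859 in the hybrid. It rose by 1.81 (SE 0.28, adjusted p = 0.000835). In contrast, miR-206 read 111, 103 and 98.5 against 46.4, 36.5 and 57.8 and fell by 1.16 (SE 0.29, adjusted p = 0.0114), and by 0.82 with equal totals. The heart and slow muscle miRNA miR-499, encoded in a myosin gene, read 35.3, 36.5 and 50.6 against 10, 8.21 and 7.71 in the hybrid, and it passed the minimum of 10 mainly through P. vachelli. The main miR-133a strand, of a hairpin clustered with miR-1, read 129.9, 144 and 153 against 302, 344 and 774 and rose by 1.60 (SE 0.31, adjusted p = 0.00297). The miR-133a-5p strand read 5.37, 2.69 and 2.97 against 11.1, 18.2 and 23.1, near the floor in P. vachelli. It passed the minimum of 10 only outside P. vachelli. Of 6 sequences in the skeletal and heart muscle list 3 were higher and 2 lower, 1 of these miR-499. Over all 278, 15.5% were called higher and 19.4% lower. The remaining member, another miR-133 3p strand, differed by 0.03 and was not called. Among hybrid libraries, library 3 had the highest values of miR-1a, both miR-133a strands and miR-206. Whether muscle tissue in the samples had a part in this was not tested.

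The clustered miR-193b and miR-365, which in mammals promote brown fat differentiation, had calls of opposite sign at the deposited scaling. The miR-193b sequence read 91.4, 122 and 107 in P. vachelli and 149.9, 171 and 385 in the hybrid, with library 3 the highest. It rose by 1.01 (SE 0.32, adjusted p = 0.0332), a call lost without any single P. vachelli library. The miR-365 sequence read 914, 967 and 904 against 399.8, 522 and 713 and fell by 0.81 (SE 0.20, adjusted p = 0.00969). With equal totals it differed by -0.46 and the call was lost (adjusted p = 0.0881). The ratio of miR-193a to miR-193b was 1.10 lower in the hybrid (SE 0.21, adjusted p = 0.00849).

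Of 16 sequences in the liver-enriched list 4 were called, all lower, with a median of -0.20 (0.14 with equal totals, 3 lower and 2 higher). Over all 278, 19.4% were called lower, and with equal totals 26 were lower and 87 higher. Clustered miR-192 and miR-194, of liver and gut epithelium, were both among the 4 calls. The miR-192 sequence read 58086, 59438 and 65217 in P. vachelli and 37718, 33715 and 36200.4 in the hybrid, with no overlap. It fell by 0.76 (SE 0.10, adjusted p = 0.000356), and by 0.42 with equal totals. For miR-194-5p the fall was 0.48 (SE 0.12, adjusted p = 0.0122), a call lost without P. vachelli library 2 and with equal totals (-0.14, adjusted p = 0.441). Its 3p strand differed by 0.00 (SE 0.22, adjusted p = 0.999).

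Markers of other cell types were read beside these. Of 12 sequences in the endothelial list (miR-126, miR-221, miR-222 and miR-218) 8 were called, all lower, with a median of -0.79 (-0.46 with equal totals, 7 lower and 0 higher). Of 14 in the mesenchymal and smooth muscle list 3 were lower and 0 higher, with a median of -0.26, and with equal totals 2 were higher and 0 lower, with a median of 0.08. The share called lower over all 278, 19.4%, is the background of both lists. With equal totals 26 of all tested were lower and 87 higher. Of 7 in the pancreatic list 1 was higher, a strand of miR-7b. The pancreatic miR-375 read 993, 566 and 424 in P. vachelli and 1214, 4442 and 1111 in the hybrid, with hybrid library 2 far above the others (adjusted p = 0.0802). Of 13 in the neural list, which does not hold miR-129, 1 was higher and 1 lower. Beside the pancreatic and neural counts stand the shares over all 278, 15.5% higher and 19.4% lower. Sequences named miR-7641, which resemble fragments of ribosomal RNA, were high in hybrid libraries 1 and 2, and the main one read 1208, 1281 and 1465 in P. vachelli and 3025, 3628 and 1264 in the hybrid (adjusted p = 0.0727). The part of cell composition or of RNA quality in any of these differences was not tested.

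Some sequences were nearly absent from P. fulvidraco, and in part of them P. vachelli exceeded the hybrid. Candidate PC-5p-555_7718 read 2324, 3195 and 3229 in P. vachelli, 1167, 1419 and 1278 in the hybrid and 1.86, 1.98 and 0.92 in P. fulvidraco. The hybrid lay between the lines without overlap, 1.17 below P. vachelli (SE 0.21, adjusted p = 0.00196). Candidate PC-5p-3257_591 read 272, 296 and 237 in P. vachelli, 99.6, 69 and 64.8 in the hybrid and 0 in all 3 libraries of P. fulvidraco. It fell by 1.79 relative to P. vachelli (SE 0.23, adjusted p = 0.000356). The candidates PC-5p-17897_142 and PC-3p-48402_39 were also lower in the hybrid, with means of 33.4 against 70.2 and 4.08 against 14.2. In P. fulvidraco the first read 0 in every library and the second read 0, 0.99 and 0. The first call (adjusted p = 0.0134) was lost without P. vachelli library 2 and with equal totals (adjusted p = 0.082). The second sequence passed the minimum of 10 through the P. vachelli libraries alone, so its difference is a description. Of the known miRNAs, miR-202-5p, a strand typical of vertebrate gonads, read 31.2, 40.9 and 41.5 in P. vachelli and 2.42, 1.97 and 2.31 in the hybrid, at or under the floor. In P. fulvidraco it read 0, 0 and 0.23. It too passed the minimum through P. vachelli alone. Beside these 5 sequences, 4 candidates at 0 to 0.93 in P. fulvidraco had no call. They were PC-3p-23565_106, with a difference of -1.57 (adjusted p = 0.105), PC-5p-5068_398, with -0.56 (adjusted p = 0.687), PC-3p-46140_42, with -0.37 (adjusted p = 0.596), and PC-3p-46979_41, with 0.21 (adjusted p = 0.702). The hybrid libraries of PC-5p-5068_398 read 58.5, 62.1 and 2.31. A further known miRNA, miR-183, was also called lower. It read 15.05, 17.06 and 14.24 in P. vachelli, 7.74, 1.97 and 0 in the hybrid and 2.79, 2.96 and 1.85 in P. fulvidraco. The miR-183 sequence passed the minimum of 10 through P. vachelli alone, so its difference is a description.

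The reverse pattern was also seen. Candidate PC-5p-30865_77 was at 0 in all 3 P. vachelli libraries, read 10.6, 10.8 and 15 in the hybrid and 28.8, 27.7 and 33.2 in P. fulvidraco. Against the floor of 3 reads per library, its hybrid mean of 12.2 was at least 3.42-fold higher. Candidate PC-5p-27278_89 read 5.37, 3.59 and 2.37 in P. vachelli, 34.8, 35.5 and 43.9 in the hybrid and 77.2, 47.4 and 65.6 in P. fulvidraco. The 3p-like strand ola-miR-99_R+1_1ss10CT read 1.07, 0 and 0 in P. vachelli and 8.71, 17.7 and 16.2 in the hybrid. In P. fulvidraco it read 21.4, 23.7 and 18.5. Its abundant partner ssa-miR-99-5p read 13699, 13348 and 13775 against 11007, 14533.5 and 16011, which overlapped. The 3p-like strand and both candidates passed the minimum of 10 only outside P. vachelli, so their differences are descriptions.

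**Figure D5:**
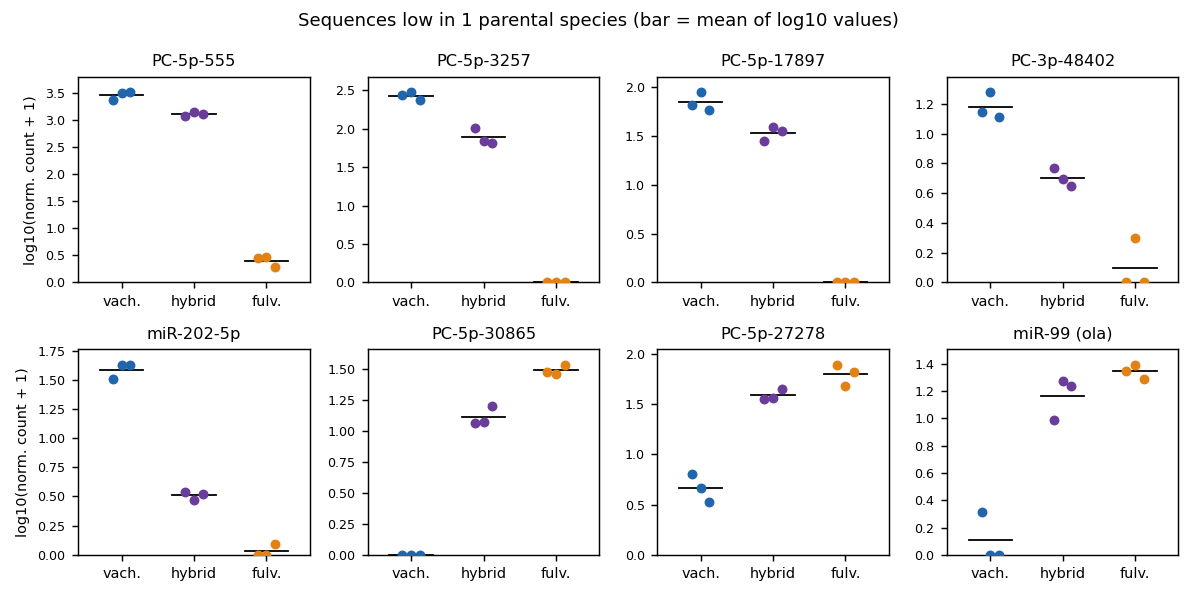
Sequences near 0 in 1 parental line, as log10 of the normalized count plus 1 (vertical axis, from 0), with a point per library and a bar at the mean of the log10 values. In the 5 sequences shown that are low in P. fulvidraco, the hybrid lies below P. vachelli. These leave out miR-183 and the 4 without a call. In the 3 shown that are low in P. vachelli the hybrid lies below P. fulvidraco.

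Some strands were complementary to others in the table, and these pairs were picked after their values were seen. The strand named hsa-miR-3120-3p_R+2 pairs over 21 bases with miR-214-5p, as in the lines that follow, where capitals mark the complementary run.
hsa-miR-3120-3p_R+2: CACAGCAAGTGTAGACAGGCAgt
aca-miR-214-5p: TGCCTGTCTACACTTGCTGTGc
It read 21.0, 22.9 and 30.25 in P. vachelli and 73.5, 68 and 57.2 in the hybrid, without overlap, and rose by 1.40 (SE 0.20, adjusted p = 0.000521). The miR-214-5p strand read 74.2, 97 and 91.35 against 71.6, 71 and 138, with a difference of 0.03 (adjusted p = 0.936). In the pair of hsa-miR-3591-5p_L-1 and miR-122-3p, with a run of 19 bases, the rarer strand read 50.5, 35.9 and 56.95 in P. vachelli and 16.4, 4.93 and 13.9 in the hybrid. It fell by 2.05 (SE 0.49, adjusted p = 0.0095), while miR-122-3p differed by -0.10 (adjusted p = 0.676). Pairs that shared a direction were also present. The strand ipu-miR-16c_R+2_1ss1CT, complementary to a miR-16a 3p strand over 22 bases, differed by 1.19 and its partner by 0.59. The strand hsa-mir-3074-p5 differed by -0.40 and its partner over 18 bases, miR-24, by -0.47. It also pairs over 16 bases with miR-24b strands that differed by 0.17 and 0.23.

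Further changes were seen in single sequences with few or no relatives in the table, of which some are given here. The miR-31 sequence, a miRNA of epithelial and mesenchymal cells in mammals, read 71.5, 95.2 and 79.5 in P. vachelli and 11.6, 14.8 and 8.09 in the hybrid. It fell by 2.76 (SE 0.32, adjusted p = 0.000263). In P. fulvidraco miR-31 read 8.37, 5.93 and 3.69, so it passed the minimum for testing mainly through P. vachelli. The 5p strand of miR-210, induced by hypoxia in vertebrates, fell by 0.71 (SE 0.11, adjusted p = 0.000901), and by 0.37 with equal totals, and its main 3p strand differed by -0.31 (adjusted p = 0.1). The miR-489-3p strand, of muscle stem cells in the mouse, read 15.05, 14.4 and 9.49 against 49.3, 37.5 and 43.9 and rose by 1.69 (SE 0.25, adjusted p = 0.000623). The miR-204-5p strand, of a hairpin in an intron of TRPM3 in mammals, read 196, 137 and 188 against 317, 292 and 245. It rose by 0.72 (SE 0.25, adjusted p = 0.0456), a call lost without any P. vachelli library, without hybrid library 1 or 2 and without P. fulvidraco library 3.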

How the data were processed

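Small RNA libraries were made from about 5 µg of total RNA using Illumina's TruSeq kit for small RNA, run on a HiSeq instrument and cleaned of other RNA classes by ACGT101-miR, per the labels' protocols. The deposited table gives a signal per library and sequence, headed as normalized counts by the authors; the sources used here give no formula, miRNA reference or genome build, and no coordinates are printed. It has 888 entries, and 160 repeats of a sequence (same values) were dropped; for the 67 tested sequences on more than 1 entry, the value is that of 1 entry. Arms came from the name (179 sequences) or from a same-seed relative (39). Arm pairs were matched by the miRNA number and letter in the names, and several sequences of an arm were summed for the ratio.

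Low values fell on multiples of a step within 0.1 read for 88.5% to 94.7% of sequences on 1 entry, so counts were not recovered and no count test was run; depth is the total over the step. PCR reads are not independent molecules, so floors cover counting error only. Limma 3.58.1 in R 4.3.3 (limma-trend, two-sided) was fitted on log2(value + 1) over all 9 libraries, with adjusted p-values over all tested sequences. Differences are on that scale and understate low sequences. Ratios were fitted without a trend. On simulated data 74.1% of 60 sequences changed 2-fold were recovered among 278. Replicate numbers did not pair libraries (correlations of deviations of -0.17, -0.17 and -0.04).

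Members and lists were chosen with earlier results of these data known. Named sequences are, per direction, the 8 largest changes at or above the median level and the 5 most abundant calls, the called sequences of families with 2 or more calls, 4 per list, the ratios called and the 10 most abundant. Partner arms, sequences near 0 in 1 line, complementary pairs, miR-489 and the miR-7641 fragments were picked after seeing values. Alternatives covered scaling, pseudocount, filter, trend, a replicate block, 6 libraries only, summed entries, family sums and each library left out. Figures used Python 3.11.15 and matplotlib 3.10.9.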

Additional observations from a re-analysis of the deposited data

How the results depend on the processing

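The count of 97 calls was 74 to 113 over the alternatives, with 74 when P. vachelli library 2 was left out and 113 with equal totals; 72 of the 97 calls held with every library left out. The 12 called ratios of same-seed sequences were 10 to 14. The count of 5 called arm ratios was 3 to 7 with 1 library left out, 3 in a fit of the 6 libraries only, 9 with a minimum of 50 in 3 libraries and 9 with unnamed arms inferred; the cause was not tested. With equal totals the difference was 0.0365 for fru-miR-200a_R+1 and 0.00933 for xtr-miR-200b, against -0.31 and -0.33, and 0.23 (adjusted p = 0.0495) for ssa-let-7f-5p_1ss19TA, against -0.11; equal totals raise the hybrid as a whole. With the replicate number as a block 82 sequences (33 higher, 49 lower), 3 arm ratios and 10 same-seed ratios were called; 1 of 9 libraries correlated best with one of its own number. Of 68 named calls, 51 to 68 were kept over the alternatives, 51 with equal totals. Without sequences named like tRNA or rRNA fragments, an alternative chosen after seeing the data, 98 were called. Depth limits the sequences near 3 reads.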
